A study of Mus musculus with 16 samples.

Results

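Cell cycle and DNA replication genes were followed in the livers of 16 mouse offspring whose mothers had breathed either filtered air or UV-Titan (titanium dioxide in nano-sized, surface-coated particles) while pregnant. The set holds 36 genes, 13 that serve the S phase and 23 that serve mitosis. They were chosen by name, with earlier results of these data known. Each gene was read from its probe with the highest mean liver signal. All 36 were on the array and among the 19382 genes tested, and all were well above background in liver on 16 of 16 arrays except Ttk, which was on 15. The offspring were C57BL/6BomTac mice, the dams being time-mated, and exposure ran for 1 hour a day from gestation day 8 to 18 at about 42 mg/m3. Daughters gave 3 arrays of controls and 5 of UV-Titan, and sons gave 4 of each, an array being 1 animal. The controls had clean air and no other agent or allele is named. Livers were collected from newborns on postnatal day 2 and at weaning on days 23 and 24, but the labels do not say which stage or litter an array came from, so p-values measure only the spread between these animals.

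A cell that divides copies its DNA in S phase and separates the copies in mitosis. Factors of the E2F family switch on S phase genes through E2F sites in their promoters, while many mitosis genes are held down in resting cells and released in G2 through a short element called the CHR, often with CCAAT boxes nearby that bind NF-Y. In the liver, hepatocytes divide around birth and become mostly quiescent with age, and the newborn liver also holds dividing blood precursors. An array of whole liver reads all of these cells together, so fewer dividing cells and less RNA per dividing cell cannot be told apart.

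The promoters of the members differed by class in these elements. RefSeq promoters of build GRCm38.p6, 300 bases each with 250 before the start, were matched for 29 of the 36 members, 11 of S phase and 18 of mitosis. Searched on both strands were the CHR as TTTGAA, the CCAAT box as CCAAT, and the E2F site as TTTCCCGC, TTTGGCGC, TTTCGCGC or TTTGCCGC. The E2F letters can overlap each other on opposite strands, and a gene with several starts was counted once. The CHR letters were in 13 of 18 mitosis members (72.2%) and in 1 of 11 S phase members, Mcm2, against 17.9% of all 32851 promoters listed. E2F letters were in 4 of 11 S phase members (36.4%), Mcm3, Mcm5, Mcm6 and Mcm7, and in 1 of 18 mitosis members, Cdk1, against 2.26% of all promoters. CCAAT letters were in 8 of 11 S phase and 15 of 18 mitosis members, against 37.4%. The same split was present in genes outside the set, with the CHR in 20 of 28 other mitosis genes and 6 of 25 other S phase genes, and E2F letters in 4 of 28 and 11 of 25. A match is a description of letters and not a tested site.

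Promoters of each class are shown as examples that hold the letters more common in their class. Capitals mark the CHR, CCAAT and E2F letters on either strand. The mitosis genes are Ccnb2, a B-type cyclin at chr9:70421505-70421804 on the minus strand, Cdc20, an activator of the anaphase-promoting complex at chr4:118437294-118437593 on the minus strand, and Plk1, a mitotic kinase at chr7:122159185-122159484 on the plus strand. The S phase genes are Mcm6 at chr1:128359656-128359955 on the minus strand and Mcm5 at chr8:75109259-75109558 on the plus strand, both subunits of the replicative helicase.
Ccnb2: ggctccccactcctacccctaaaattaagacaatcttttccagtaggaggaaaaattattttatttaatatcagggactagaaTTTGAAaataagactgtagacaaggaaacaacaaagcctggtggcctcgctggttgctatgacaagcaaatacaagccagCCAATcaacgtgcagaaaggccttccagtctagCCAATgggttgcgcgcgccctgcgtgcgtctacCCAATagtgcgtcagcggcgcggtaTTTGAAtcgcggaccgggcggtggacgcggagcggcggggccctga
Cdc20: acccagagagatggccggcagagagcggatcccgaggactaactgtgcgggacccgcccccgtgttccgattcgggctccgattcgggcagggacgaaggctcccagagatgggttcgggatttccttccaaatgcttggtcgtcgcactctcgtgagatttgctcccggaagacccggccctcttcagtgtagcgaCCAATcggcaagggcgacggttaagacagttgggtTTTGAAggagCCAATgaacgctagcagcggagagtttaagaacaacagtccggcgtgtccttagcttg
Plk1: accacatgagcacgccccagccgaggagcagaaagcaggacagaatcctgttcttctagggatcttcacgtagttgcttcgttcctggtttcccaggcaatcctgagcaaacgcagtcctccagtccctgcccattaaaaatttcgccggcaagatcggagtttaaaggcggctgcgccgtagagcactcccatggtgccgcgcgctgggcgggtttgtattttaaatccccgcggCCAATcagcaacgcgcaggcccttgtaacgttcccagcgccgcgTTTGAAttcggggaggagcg
Mcm6: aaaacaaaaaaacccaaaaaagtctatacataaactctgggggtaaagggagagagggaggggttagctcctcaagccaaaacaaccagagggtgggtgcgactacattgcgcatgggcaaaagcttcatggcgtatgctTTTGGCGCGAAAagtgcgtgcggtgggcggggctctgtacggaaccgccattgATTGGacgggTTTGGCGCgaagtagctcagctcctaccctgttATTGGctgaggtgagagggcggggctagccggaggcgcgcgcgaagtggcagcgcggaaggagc
Mcm5: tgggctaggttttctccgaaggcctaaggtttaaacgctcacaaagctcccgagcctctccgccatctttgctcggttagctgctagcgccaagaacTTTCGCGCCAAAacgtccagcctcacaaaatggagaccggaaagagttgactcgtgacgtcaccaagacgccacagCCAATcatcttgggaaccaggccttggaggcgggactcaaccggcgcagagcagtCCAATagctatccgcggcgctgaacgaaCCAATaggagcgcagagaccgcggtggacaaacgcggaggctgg
In Ccnb2 the CHR letters began 4 bases after the start and again at -167, with CCAAT at -21, -54 and -87. In Cdc20 they began at -18, with CCAAT on either side at -53 and -8, and in Plk1 at 30, with CCAAT upstream at -14. In Mcm6 E2F letters began at -110, -106 and -47, the members of the upstream pair overlapping on opposite strands. In Mcm5 an overlapping pair began at -153 and -149.

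Signals were read as log2 of liver over a common reference, a commercial universal mouse RNA, and in parts as log2 of the liver channel alone. Label fields and labelling protocol named opposite dyes for liver; red was read as liver because hepatocyte genes such as Alb, the serum albumin gene, were brighter there, with a log2 ratio of 4.44 ± 0.61 (SD, n = 16). Xist, the RNA that silences an X chromosome in females, had a log2 ratio of 1.87 ± 0.20 and 1.88 ± 0.11 in the female groups and of -5.82 ± 0.20 and -5.56 ± 0.53 in the male groups (SD), and Ddx3y on the Y chromosome ran the other way, so the sex labels matched. Between 57.7% and 67.1% of spots were well above background in liver, the lowest share being that of female control 35. Male controls 31 and 33 stood apart by exocrine pancreas genes, whose mean log2 ratio was 3.46 and 2.57 against 0.73 to 1.0984 on the other arrays. Male UV-Titan 5 stood apart by skeletal muscle genes, at 1.94 against at most -0.23. Class medians and counts of members in males are also given without these 3 arrays, while values of single members include them. Precision is limited throughout by how few arrays there are.

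Among the S phase members, 10 of 13 had a mean log2 ratio above 0, from -0.41 for Mcm3 to 0.75 for Ccne2 with a median of 0.17, against 56% of all genes tested. Values of single animals are given below in the order female controls 25, 35 and 40, female UV-Titan 2, 8, 10, 16 and 21, male controls 31, 33, 41 and 43, and male UV-Titan 3, 4, 5 and 17. Mcm5, a subunit of the helicase that opens DNA at origins (probe at chr8:73669372-73669432, build mm7), had a log2 ratio of 0.20, -0.20 and 0.32 in control and 0.13, -0.07, 0.27, 0.11 and 0.20 in UV-Titan females, and -0.02, 0.18, 0.48 and 0.09 in control and 0.13, 0.28, 0.33 and 0.32 in UV-Titan males. Female control 35 was the lowest and male control 41 the highest, and the groups overlapped in both sexes. Mcm6 (chr1:128211735-128211794) had a log2 ratio of 0.29, 0.19 and 0.38 in control and 0.34, -0.14, 0.26, 0.14 and 0.20 in UV-Titan females, and 0.18, 0.20, 0.63 and -0.06 in control and 0.16, 0.30, 0.13 and 0.34 in UV-Titan males. Here female UV-Titan 8 was the lowest and male control 41 the highest, again with overlap. Pcna, the sliding clamp of DNA polymerase (chr2:131990537-131990674), had a log2 ratio of 0.45, 0.04 and 0.57 in control and 0.39, 0.06, 0.55, 0.30 and 0.63 in UV-Titan females, and 0.63, 0.46, 1.00 and 0.29 in control and 0.43, 0.67, 0.60 and 0.71 in UV-Titan males. Its ends were female control 35 and male control 41, and female UV-Titan 8 was close to the lower end.

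Rrm2, the small subunit of the enzyme that makes deoxyribonucleotides (chr12:22550253-22550307), had a log2 ratio of 0.92, 0.41 and 0.54 in control and 0.68, 0.20, 0.74, 0.55 and 0.84 in UV-Titan females, and 0.69, 0.68, 0.99 and 0.55 in control and 0.57, 0.83, 0.90 and 1.18 in UV-Titan males. Male UV-Titan 17 was highest and female UV-Titan 8 lowest. E2f1, a transcription factor that activates S phase genes (chr2:154301126-154301185), had a log2 ratio of -0.23, -0.52 and 0.03 in control and 0.08, -0.14, -0.19, -0.25 and -0.21 in UV-Titan females, and -0.53, -0.43, 0.16 and -0.27 in control and -0.26, 0.04, 0.32 and 0.05 in UV-Titan males. Of its male controls 3 of 4 were below all 4 male UV-Titan animals, while male control 41 lay inside their range. Ccne2, the cyclin that activates Cdk2 at the start of S phase (chr4:11130171-11130230), had a log2 ratio of 0.58, 0.60 and 0.84 in control and 0.60, 0.31, 0.71, 0.76 and 0.84 in UV-Titan females, and 0.98, 1.03, 0.81 and 0.75 in control and 0.68, 1.02, 0.55 and 0.93 in UV-Titan males. Unlike most members, it was lower in male control 41 than in male controls 31 and 33. The remaining S phase members are the helicase subunits Mcm2, Mcm3, Mcm4 and Mcm7, the nucleotide enzymes Rrm1, Tyms and Tk1, and their means over 16 arrays ran from -0.41 (Mcm3) to 0.49 (Tk1).

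Among the mitosis members, 4 of 23 had a mean log2 ratio above 0, from -1.02 for Bub1 to 0.89 for Mki67, with a median of -0.37. The sign of a ratio also depends on how much of the gene the reference holds, so these counts do not rank the classes by level in liver. The others above 0 were Ccnb2 (0.53), Birc5, a chromosomal passenger protein (0.48), and Ccna2, the A-type cyclin (0.42). Mki67, the gene of the proliferation antigen Ki-67 (chr7:132094802-132094861), had a log2 ratio of 0.99, 0.34 and 0.90 in control and 0.84, 0.38, 0.99, 0.65 and 1.07 in UV-Titan females, and 0.57, 1.01, 1.32 and 0.72 in control and 0.86, 1.17, 1.12 and 1.28 in UV-Titan males. Male control 41 was highest and female control 35 lowest, and control and UV-Titan animals overlapped in each sex. Cdk1, the kinase that drives entry into mitosis (chr10:68946079-68948488, listed on the array as Cdc2a), had a log2 ratio of -0.60, -0.70 and -0.21 in control and -0.58, -1.06, -0.70, -0.83 and -0.44 in UV-Titan females, and -0.82, -0.47, -0.18 and -0.82 in control and -0.72, -0.50, -0.67 and -0.60 in UV-Titan males. Female UV-Titan 8 was lowest, and male control 41 and female control 40 were highest. Ccnb1, the cyclin partner of Cdk1 (chr13:97885282-97885341), had a log2 ratio of -0.26, -0.85 and -0.25 in control and -0.42, -0.85, -0.41, -0.50 and -0.39 in UV-Titan females, and -0.39, -0.19, 0.17 and -0.67 in control and -0.46, -0.16, -0.22 and -0.08 in UV-Titan males. Female control 35 and female UV-Titan 8 shared its low end, both at -0.85.

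Top2a, the topoisomerase that untangles replicated DNA (chr11:99104969-99105783), had a log2 ratio of -0.45, -0.88 and -0.29 in control and -0.54, -0.99, -0.35, -0.72 and -0.41 in UV-Titan females, and -0.66, -0.47, -0.21 and -0.63 in control and -0.51, -0.33, -0.37 and -0.53 in UV-Titan males. Female UV-Titan 8 was lowest, followed by female control 35, and male UV-Titan 17 was the lowest of its group. Aurka, a kinase of the spindle poles (chr2:172148888-172148947), had a log2 ratio of -0.39, -0.58 and -0.36 in control and -0.52, -0.78, -0.55, -0.60 and -0.55 in UV-Titan females, and -0.52, -0.46, -0.22 and -0.87 in control and -0.65, -0.49, -0.48 and -0.24 in UV-Titan males. Male control 43 was lowest, and male control 41 was highest. Plk1 (chr7:118093971-118094030) had a log2 ratio of -0.05, -0.23 and 0.10 in control and -0.02, -0.17, 0.01, -0.17 and 0.03 in UV-Titan females, and -0.09, -0.05, 0.34 and -0.21 in control and -0.05, 0.09, 0.12 and 0.18 in UV-Titan males, with male control 41 highest and female control 35 lowest. The other mitosis members were spindle checkpoint genes (Bub1, Bub1b, Ttk), the anaphase activator Cdc20, the passenger kinase Aurkb, motor proteins (Kif11, Kif20a, Kif23, Cenpe), spindle and kinetochore proteins (Tpx2, Cenpf, Ndc80, Nuf2) and Foxm1, a transcription factor of G2 genes, and apart from Bub1 their means ran from -0.90 (Bub1b) to -0.11 (Kif11).

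S phase and mitosis members moved together from animal to animal. The mean log2 ratio of the 13 S phase members ran from -0.15 in female UV-Titan 8 to 0.53 in male control 41, and that of the 23 mitosis members from -0.66 to 0.06 in the same animals. Male control 41 was the highest of 16 arrays for 30 of 36 members and female UV-Titan 8 the lowest for 23. In the liver channel alone female UV-Titan 8 was still lowest for 21, while the highest was male control 41 for 17 and male UV-Titan 17 for 14. Female control 35, the array with the lowest share of liver spots above background, was lowest by ratio for 7 members, and male control 43 for 5. Both ends of the range thus held control as well as UV-Titan animals.

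**Figure D1:**
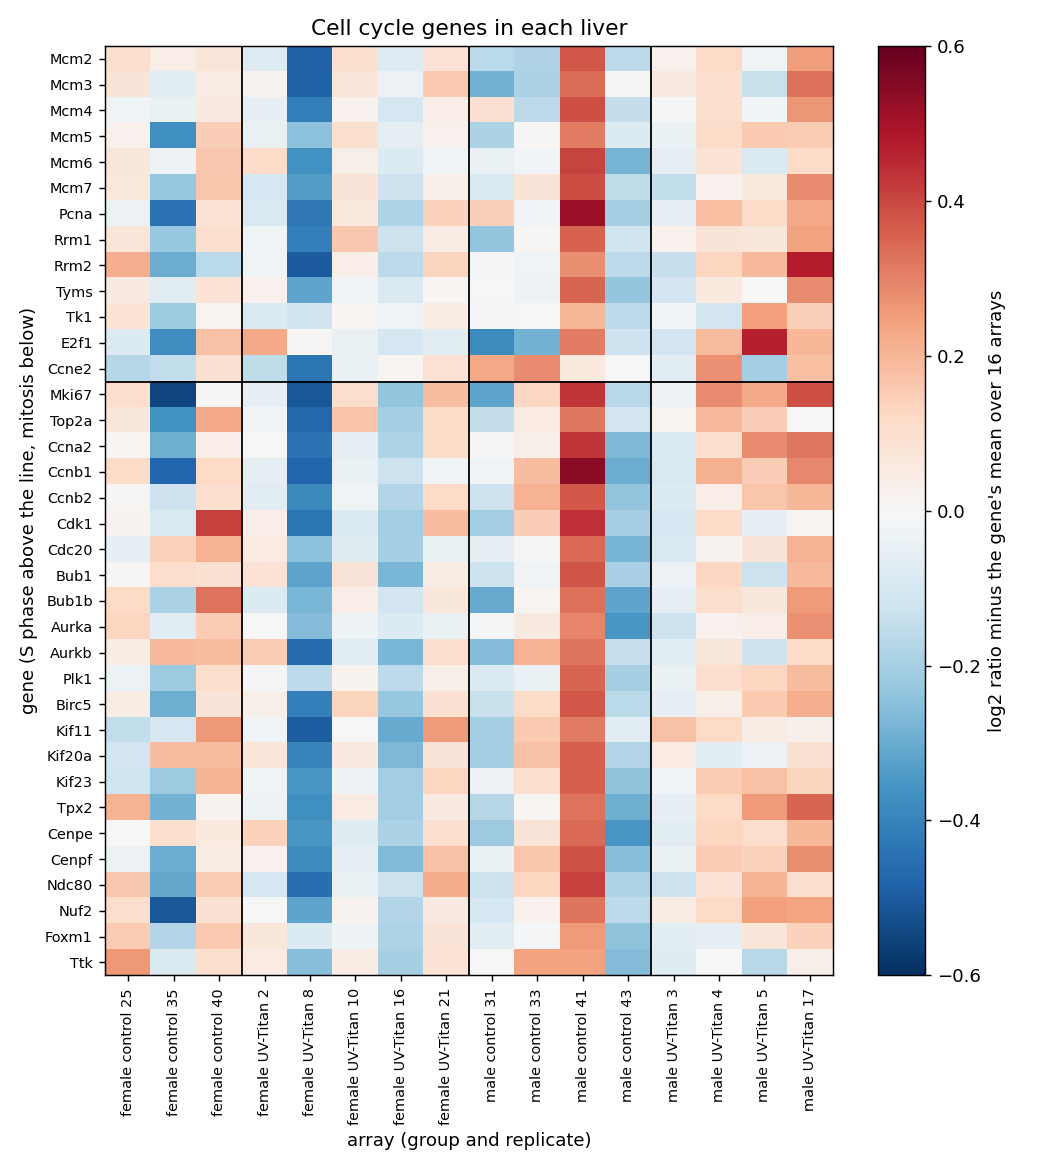
Each row is a gene and each column a liver; colour is the log2 ratio minus the gene's mean over 16 arrays, with red higher and blue lower, and black lines separate the groups and the classes. Male control 41 is red and female UV-Titan 8 blue in nearly every row of both classes.

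After each array was set against its group's mean, the class means of S phase and mitosis members correlated at r = 0.94 by ratio and 0.91 in the liver channel alone over 16 arrays; these r describe arrays that share a reference and a scan and carry no test. Gene by gene, the median r was 0.73 over 78 pairs within S phase, 0.81 over 253 pairs within mitosis and 0.74 over 299 pairs across the classes. In the reference channel the same medians were 0.08, 0.04 and 0.08, although its class means correlated at 0.87. Cenpf, a kinetochore protein, and Birc5 followed the mean of the other 35 members most closely, both at r = 0.96 and 0.97, and Ccne2 (0.42), E2f1 (0.58) and Tk1 (0.70, thymidine kinase) followed it least by ratio. In the liver channel alone E2f1 (0.33) and Foxm1 (0.45) followed it least and Ccne2 had 0.63. By ratio the members with promoters shown above had r from 0.80 (Cdc20) to 0.95 (Ccnb2). Members whose matched promoters held no CHR, CCAAT or E2F letters had 0.97 (Birc5), 0.91 (Tyms), 0.89 (Nuf2), 0.70 (Tk1) and 0.58 (E2f1). Whether the letters went with the shared movement was not tested. The difference between the class means, whose size also depends on the reference, was 0.50 ± 0.06 log2 (SD, n = 16), from 0.36 in male control 33 to 0.61 in female UV-Titan 16. It was 0.46 ± 0.03 in female controls, 0.51 ± 0.06 in female UV-Titan, 0.49 ± 0.10 in male controls and 0.50 ± 0.04 in male UV-Titan; the group ranges overlapped, and the differences between groups were not tested.

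**Figure D2:**
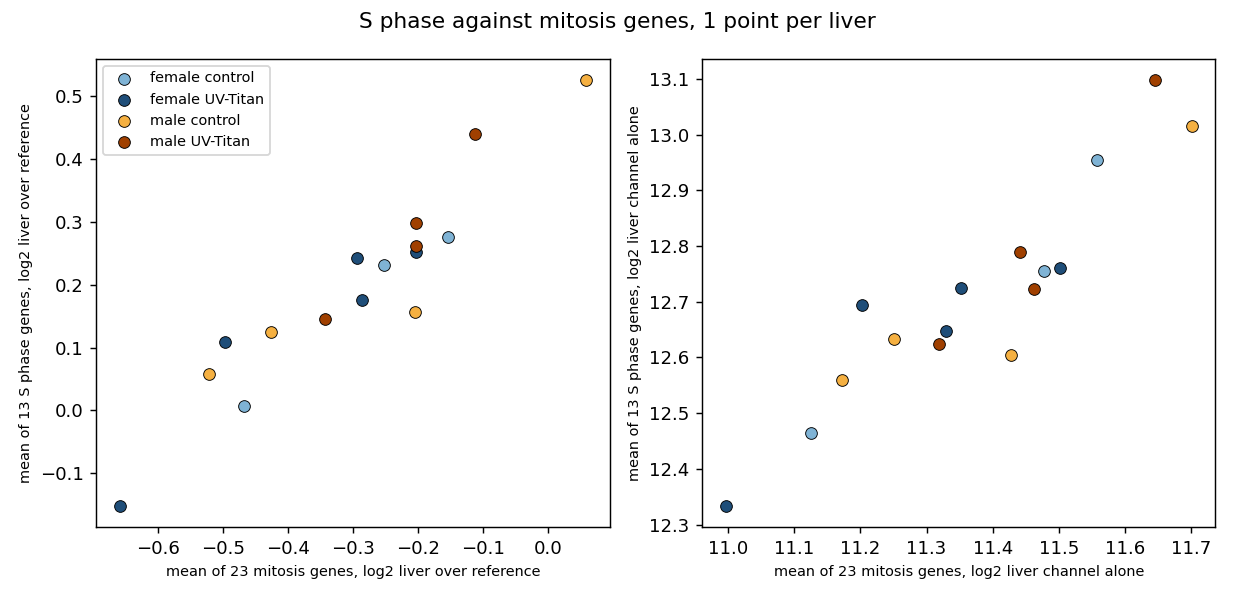
Each point is a liver, with the mean of the 23 mitosis genes on the x axis and of the 13 S phase genes on the y axis, as log2 ratio to the reference (left) or log2 liver channel alone (right). The points lie along a line, and the 4 groups are mixed along it.

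The spread between animals of a group was larger for these genes than for most. The pooled within-group SD of the log2 ratio had a median of 0.20 over S phase and 0.21 over mitosis members, against 0.13 over all 19382 genes, and 36 of 36 members were above that general median. It ran from 0.13 for Tk1 to 0.29 for Mki67, followed by Ccnb1 (0.26). In the liver channel alone the medians were 0.23 and 0.23 against 0.17, with 35 of 36 members above the general median and Rrm2 the most variable (0.44). In the reference channel, where the same RNA was on every array, the medians were 0.12 and 0.12 against 0.11.

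**Figure D3:**
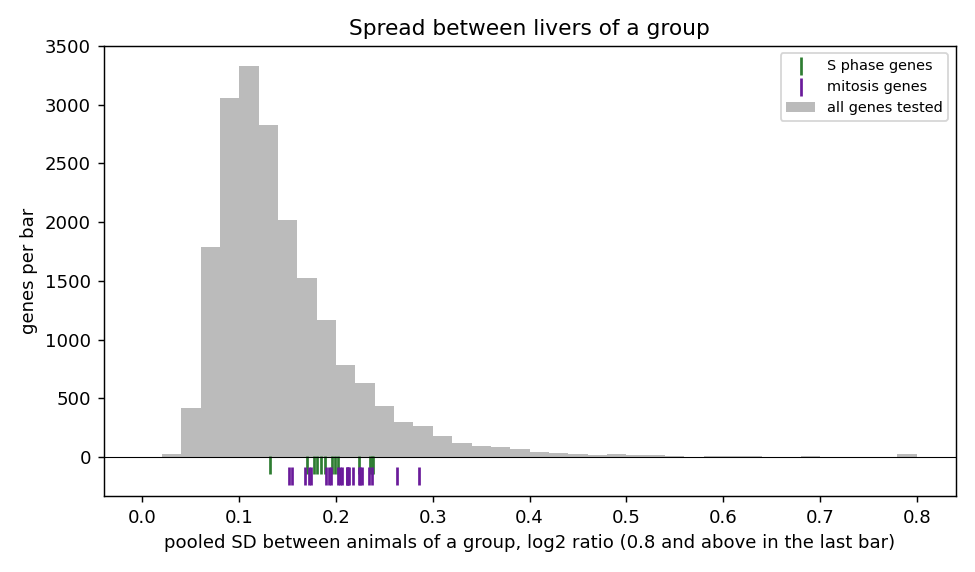
Grey bars count all genes tested by their pooled SD between animals of a group (log2 ratio), and ticks below mark the S phase and mitosis genes. All ticks lie to the right of the general median of 0.13.

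The first question of the design is whether maternal UV-Titan altered the liver of female offspring. For these genes no difference passed the test: 30 of 36 members had a lower and 6 a higher mean after UV-Titan, by -0.25 to 0.10 log2. The median was -0.05 over S phase and -0.10 over mitosis members, against 0.02 over all genes. In limma the share of all genes called at an adjusted p under 0.05 was 0%, and the members' adjusted p ran from 0.80 to 0.997. At an unadjusted p under 0.05, 5.4% of all genes were higher and 1.27% lower, and 0 of 36 members were either.

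Aurkb, the kinase of the chromosomal passenger complex (chr11:69133109-69133168), had the smallest p, 0.0915, and a log2 ratio of -0.31, -0.16 and -0.17 in female controls and -0.20, -0.82, -0.42, -0.63 and -0.25 in female UV-Titan animals. The UV-Titan animals reached from within the control range to far below it, and the difference was -0.25 ± 0.14 (SE; limma adjusted p = 0.80). Cdc20 (chr4:117809370-117809429) had a log2 ratio of -0.73, -0.55 and -0.47 in female controls and -0.63, -0.93, -0.75, -0.88 and -0.73 in female UV-Titan animals. Its difference was -0.20 ± 0.11 (adjusted p = 0.80 in limma), with UV-Titan 2 and control 25 keeping the groups in overlap. Cdk1 was lower by 0.22 ± 0.16 and Aurka by 0.15 ± 0.12, whereas Mki67, Mcm5, Pcna and Plk1 differed by 0.05 ± 0.19, 0.02 ± 0.12, 0.03 ± 0.16 and -0.0046 ± 0.11. Over the 36 members the 95% intervals lay between -0.55 and 0.44 log2, and each interval spanned 0. No member separated the female groups, against 3.17% of all genes with every UV-Titan array above and 1.03% with every one below the controls.

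The female split moved with single animals and with the setting. Without female UV-Titan 8, 17 members were higher and 19 lower, with medians of 0.03 for S phase and -0.02 for mitosis, and with slide as a block the split was 18 to 18. Without control 35, the array with the lowest share of liver spots above background, all 36 members were lower and the medians were -0.13 and -0.18. They were -0.0084 and -0.03 without control 40, -0.04 and -0.06 without control 25, -0.10 and -0.12 without UV-Titan 10, and -0.08 and -0.16 without UV-Titan 21. Array weights, the quantile-normalised liver channel, Agilent's processed signals and the authors' own ratio table each gave 2 members higher and 34 lower. With the liver channel centred on each array's median 33 members were higher and 3 lower, the medians were 0.17 and 0.15, and the median of all genes stood at 0.14. On the slides that held both female groups, 1 animal of each, the S phase mean after UV-Titan differed by 0.17, -0.03 and -0.12 and the mitosis mean by 0.18, -0.14 and -0.25. Slides 2 and 3 held no female control, and female UV-Titan 8 was on slide 2, so no female control shared its slide. Beside the members, all 11 measured hepatocyte genes had a higher mean ratio after UV-Titan (median 0.49), as had 10 of 10 megakaryocyte and platelet genes (0.51), 11 of 11 granulocyte, 8 of 8 macrophage and 7 of 7 endothelial genes (0.52, 0.26 and 0.36). Of the 13 erythroid genes 10 were higher and 3 lower by ratio (0.21), opposite to most members, and 4 higher and 9 lower in the liver channel alone (-0.06). Per array the erythroid mean ratio ran from 3.28 to 3.34 in female controls and from 3.40 to 3.59 after UV-Titan, with no overlap. Gata1, a factor of red cell precursors, ran from 2.13 to 2.27 and from 2.34 to 2.53, a separation that 3.17% of all genes had in this direction. Megakaryocyte means (2.28 to 2.49 against 2.81 to 3.06) and endothelial means (3.02 to 3.23 against 3.33 to 3.57) did not overlap either. In the liver channel alone the erythroid means overlapped, at 12.04 to 12.62 against 11.86 to 12.61. So did the endothelial means there, at 11.05 to 11.31 against 11.27 to 11.47. The megakaryocyte means stayed apart, at 10.44 to 10.48 against 10.71 to 11.02. Per array the hepatocyte mean ratio ran from 4.44 to 4.70 in the controls and from 4.80 to 5.44 after UV-Titan, the highest being UV-Titan 8. In the liver channel alone the hepatocyte means overlapped, at 14.60 to 14.66 against 14.58 to 14.95. What part these lists had in the members' differences was not tested.

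In male offspring 29 of 36 members had a higher and 7 a lower mean after UV-Titan, from -0.11 for Ttk to 0.31 for E2f1, and again none passed. The medians were 0.06 for S phase and 0.05 for mitosis members, against 0.02 over all genes. The share of all genes called was 0%, and the members' adjusted p ran from 0.95 to 0.998 in limma. At an unadjusted p under 0.05, 3.12% of genes were higher and 1.82% lower, and again 0 of 36 members were.

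E2f1, whose values are given above, was higher by 0.31 ± 0.15 log2 (SE; unadjusted p = 0.0577, limma adjusted p = 0.95). Tpx2, which activates Aurora A on the spindle (chr2:152634597-152634656), had a log2 ratio of -0.71, -0.53, -0.21 and -0.83 in male controls and -0.59, -0.42, -0.28 and -0.19 in male UV-Titan animals. Its UV-Titan animals 4, 5 and 17 were above 3 of the controls, but control 41 was above all of them except UV-Titan 17, and the difference was 0.20 ± 0.14. Bub1b, a spindle checkpoint kinase, was higher by 0.16 ± 0.14, Mki67 by 0.20 ± 0.18, Rrm2 by 0.14 ± 0.15 and Mcm5 by 0.08 ± 0.12, while Mcm6 and Pcna differed by -0.01 ± 0.12 and 0.01 ± 0.15. The 95% intervals of the members lay between -0.37 and 0.62 log2. No member separated the male groups, against 1.91% of genes with every UV-Titan array above and 1.07% below.

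The male split moved with single animals: 34 members were higher without control 41, 15 without control 43 and 18 without UV-Titan 17. Without control 41 the medians were 0.15 for S phase and 0.16 for mitosis. Without control 43 the medians were 0.0027 and -0.04, without control 31 0.03 and 0.02, without UV-Titan 17 0.03 and -0.0003, and without UV-Titan 3 0.09 and 0.10. Without the 3 arrays with pancreas or muscle transcripts they were -0.0039 and 0.0071, with 17 members higher and 19 lower. The largest difference of any member, in size, was then 0.12 log2, against 0.31 (E2f1) with all arrays. With the liver channel centred on each array's median 18 members were higher and 18 lower. Among males those tissues' genes stood high only on those 3 arrays. Exocrine pancreas was lower after UV-Titan in 9 of 9 genes (median -1.01), yet controls 41 and 43 (means 0.95 and 0.91) lay within the UV-Titan range of 0.81 to 1.04. Skeletal muscle was higher in 7 of 7 (0.93), yet UV-Titan 3, 4 and 17 had means of -1.13, -1.06 and -0.84 against -1.17 to -0.93 in controls. The part of these genes in the members' values was not tested. Within slides, UV-Titan minus control was -0.23, 0.14 and 0.09 for the S phase mean and -0.26, 0.22 and 0.18 for the mitosis mean. Slide 4 held no male UV-Titan animal and slide 5 no male control.

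**Figure D4:**
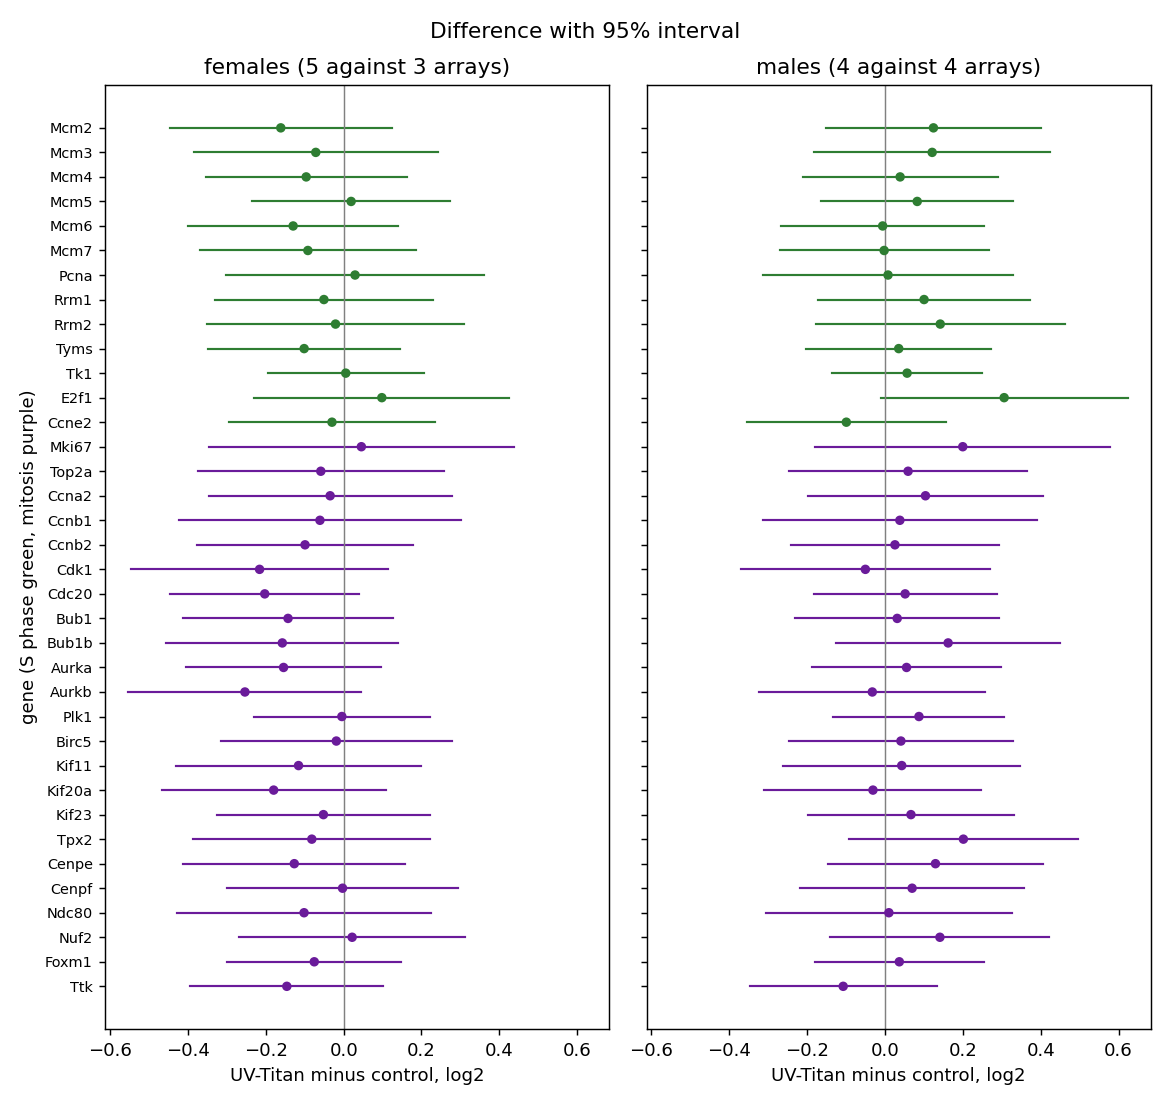
Points are the difference UV-Titan minus control in log2 for each gene with its 95% interval from limma, in females (left) and males (right), S phase genes green and mitosis genes purple. Every interval spans 0 in both panels, with most points below 0 in females and above 0 in males.

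Averaged over both sexes, 18 members were higher and 18 lower, between -0.14 for Aurkb and 0.20 for E2f1, with 0% of all genes called. E2f1 had the smallest p of the members, with 0.20 ± 0.11 (SE; limma adjusted p = 0.75), followed by Ttk at -0.13 ± 0.08 and Aurkb at -0.14 ± 0.10. The even split moved with single animals: 5 members were higher without female control 35, 10 without female UV-Titan 21, 11 without male control 31, 12 without female UV-Titan 10, 10 without male control 43 and 28 without male control 41. It was 8 higher and 28 lower without the 3 arrays with pancreas or muscle transcripts, where the largest difference of any member, in size, was 0.16. It was 30 higher and 6 lower in the median-centred liver channel, where the median of all genes was 0.05. The direct test of the female against the male effect gave 34 of 36 members a more negative effect in females, with medians of -0.14 for each class, but 0% of all genes passed and the members' adjusted p in limma were 0.98 or more. The largest was Bub1b at -0.32 ± 0.20, followed by Mcm2 at -0.29 ± 0.19, Cdc20 being -0.25 ± 0.16. With 1 animal left out the S phase median ran from -0.25 (without male control 41) to -0.05 (without male control 43) and the mitosis median from -0.25 to -0.06 (without male control 41 and female control 40). In the median-centred liver channel 30 of 36 members had a more positive effect in females than in males, with the median of all genes at 0.15. The female and male effects were therefore not shown to differ for any member.

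Male livers had higher means than female livers for 33 of 36 members, averaged over both treatments, with medians of 0.10 for S phase and 0.11 for mitosis members against -0.0022 over all genes. The limma test called 0.0464% of all genes, 9 in number, and 0 of 36 members. At an unadjusted p under 0.05, 2.34% of all genes were higher and 1.97% lower in males, and 1 member was, Ccne2, with a difference of 0.19 ± 0.09 (SE; limma adjusted p = 0.98). Pcna was higher by 0.23 ± 0.11 and Cenpf by 0.20 ± 0.10. Without male control 41 the medians were 0.04 and 0.05, with 23 members higher, without female control 35 0.05 and 0.05, and without female UV-Titan 8 0.07 and 0.07. With slide as a block they were 0.16 and 0.15. The erythroid list, 13 of 13 genes with a median of 0.25, was also higher in males by ratio, and its part in the members' values was not tested.

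Genes of the same pathways outside the set, listed with earlier results of these data known, gave counts of the same kind, and none was called. Of 31 other S phase genes 10 were higher and 21 lower in females (median -0.03), 24 higher and 7 lower in males (0.07), and 26 higher in males than in females. Of 35 other mitosis genes 8 were higher and 27 lower in females (-0.07), 23 higher and 12 lower in males (0.04), and 34 higher in males than in females. Of 24 regulators of G1 and cell cycle brakes, 14 were higher and 10 lower in females and 13 higher and 11 lower in males, with medians of 0.02 and 0.01. In females the smallest p were those of Gins2, a helicase cofactor, at -0.23 ± 0.09, E2f2 at 0.22 ± 0.13, the cytokinesis genes Anln at -0.34 ± 0.14 and Ect2 at -0.28 ± 0.13, Wee1, a kinase that holds Cdk1 off, at -0.21 ± 0.08, and Cdk4, the partner of D cyclins, at -0.20 ± 0.08; limma's adjusted p were 0.70 to 0.82. In males they were E2f8, a repressor of the E2F family, at 0.25 ± 0.11, Pold1 of DNA polymerase delta at 0.12 ± 0.08, the checkpoint gene Mad2l1 at -0.24 ± 0.14, Ube2c of the anaphase machinery at 0.20 ± 0.15, Btg2, an antiproliferative gene, at 0.17 ± 0.08 and the Cdk4 inhibitor Cdkn2d at 0.33 ± 0.17, with adjusted p in limma of 0.95 to 0.96. Between sexes they were E2f2 (0.27 ± 0.09), Orc1 of the origin complex (0.19 ± 0.10), the Cdk1-activating phosphatase Cdc25b (0.40 ± 0.17), the spindle gene Nusap1 (0.24 ± 0.11), the inhibitor Cdkn2c (0.17 ± 0.08) and Ccnd1 (-0.19 ± 0.09), each with an adjusted p of 0.98 in limma.

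The other S phase and mitosis genes also followed the members from animal to animal. With each array set against its group's mean, the r of a gene with the mean of the 36 members (of the others, for a member) had a median of 0.81 over the other S phase genes and 0.85 over the other mitosis genes, 0.26 over G1 regulators and brakes, and -0.09 over all genes tested, of which 10.3% were above 0.5. Above 0.5 were 29 of 31 other S phase genes, 31 of 35 other mitosis genes and 8 of 24 of the G1 list, whose r ran from -0.80 to 0.86. Cdkn1a, the p53-induced inhibitor p21, had a log2 ratio of -1.76 ± 0.20 and Ccnd1, the D cyclin of G1, one of -1.41 ± 0.22 (SD, n = 16).

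Marker genes of liver stage and of blood precursors were set against the members by channel. Afp, the fetal serum protein, had a log2 ratio of 8.11 ± 0.73 (SD, n = 16) with a range from 6.51 to 8.99, and H19 and Igf2, imprinted genes of the growing fetus, had 3.46 ± 0.38 and 4.17 ± 0.47. Hsd3b5 and Cyp7b1, enzymes of the mature liver, had 2.06 ± 0.29 and 1.74 ± 0.27, and Gata1, a master factor of red cell precursors, had 2.36 ± 0.13. No stage was assigned to any array from these values. By ratio none of the 8 relations of Mki67, Cdk1, Mcm5 and Rrm2 with Afp and Gata1 was detected: r lay between -0.32 and 0.19 and rho between -0.19 and 0.28, with permutation p adjusted over the 8 of 0.666 or more for r and 0.722 for rho (two-sided, n = 16). After the 2 arrays farthest from the partner gene's median were left out, r lay between -0.12 and 0.22. Within slides r with Gata1 was 0.58 for Mki67 (permutation p = 0.0194, adjusted 0.0844) and 0.56 for Mcm5 (permutation p = 0.0211, adjusted 0.0844).

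In the liver channel alone, each of these genes had a positive r with Gata1, to a different degree. Mki67 correlated with it at r = 0.86 (permutation p = 4e-05, adjusted 0.00032) and rho = 0.84 (p = 8e-05, adjusted 0.00064), and Mcm5 at r = 0.67 (permutation p = 0.00376, adjusted 0.01) and rho = 0.60 (p = 0.0153, adjusted 0.039). Without the 2 arrays farthest from the median of Gata1 these were 0.84 and 0.67, within groups 0.83 and 0.66, and within slides 0.90 and 0.78. Rrm2 had r = 0.59 (permutation p = 0.0126, adjusted 0.0252) and rho = 0.59 (p = 0.0195, adjusted 0.039). Cdk1 had r = 0.57 (permutation p = 0.0223, adjusted 0.0357) but rho = 0.45 (p = 0.0805, adjusted 0.0867), and without the 2 farthest arrays its r was 0.51 (permutation p = 0.0631, adjusted 0.101). Nothing was read from Afp in this channel: it lay at the top of the quantile-normalised scale, between 18.75 and 18.85 on 16 arrays, where the normalisation leaves little spread.

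The whole erythroid list was set against the members in the same way. All 13 of its measured genes, of 15 listed, had an r above 0.5 with the members' mean in the liver channel alone, with a median of 0.83 and a lowest of 0.67, against 9.99% of all genes above 0.5. By ratio 5 of the 13 did, and the median was -0.02. Over the arrays the mean of the list in the liver channel ran, for controls and then UV-Titan, from 12.04 to 12.62 and from 11.86 to 12.61 in females, and from 12.05 to 12.89 and from 12.27 to 12.90 in males. Hepatocyte genes had a median r of -0.05 with the members in the liver channel and -0.30 by ratio, and lists of fetal and of mature liver genes had -0.34 and -0.25 in the liver channel. Part of these r is shared by all values of an array, and whether the cycling transcripts came from red cell precursors was not tested.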

How the data were processed

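Liver RNA of 16 offspring was hybridised with a universal reference RNA to Agilent mouse 4 x 44 arrays, 200 ng each, per the labels' protocols. The authors deposited the scanner output of Agilent Feature Extraction (version 9.5.3.1 per the labels), from which the mean and local background intensity of both channels were used as scanned. The authors' own log2 ratio table, of normalisation not given in the sources used here, served as an alternative. Its column medians lay between -0.045 and -0.0375, and it ran red over green, with r of 0.862 to 0.899 to the processed scanner ratios of the same arrays, on the same log2 scale.

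Outlier spots were left out (0 spots were saturated), and intensities were corrected with normexp (offset 50) and loess-normalised within each array with limma 3.58.1 (R 4.3.3), giving control spots a weight of 0. Repeated spots were averaged. A probe was kept if its liver signal was well above background on 3 or more arrays, and the brightest such probe stood for a gene. This gave 19382 genes, 12373 of them named by accession and 7009 by the array's own name. Positions of probes are those of the files in build mm7, without a gene model of that build. The liver channel alone was normexp-corrected and quantile-normalised.

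One limma model with 4 group means was fitted to all 16 arrays. Two-sided p-values were adjusted by Benjamini-Hochberg across the genes, with a threshold of 0.05, and intervals are 95%. The test was checked on simulated data for the female comparison, where it recovered 76 of 100 genes changed by 0.5 log2 and 97 of 100 changed by 1, over 19382 genes, with 14 false calls. The changed genes were picked at random from all genes, with noise drawn independently for each gene. These shares do not apply to the members, which moved together and had a median SD of 0.20 (S phase) and 0.21 (mitosis) against 0.13. Correlations used 100000 permutations. Alternatives covered background, normalisation, filter, probe choice, channel, slide and scan day as blocks, array weights and left-out animals.

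The members and lists were chosen with earlier results of these data known. Named with values were 12 members picked by role, the 3 members with the smallest p in each comparison, and the 2 such genes of each pathway list.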

Additional observations from a re-analysis of the deposited data

Results flagged for a closer look

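Values within a group of 4 or 5 animals were examined for 1 animal far from the rest, in 108 groups of values over the 36 members. Chance marks about 1 group in 20, and 2 were marked. Mcm2, a helicase subunit, had a log2 ratio of 0.55 in male control 41, while the other 3 male controls lay between -0.0072 and 0.0131. Ccnb1, the cyclin of Cdk1, had a log2 ratio of -0.85 in female UV-Titan 8, while the other 4 animals of the group lay between -0.50 and -0.39. These are the animals at the upper and lower end of most members.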

How the results depend on the processing

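No member was called in any comparison under any alternative; the smallest adjusted p in limma over all of them was 0.523 in females, 0.576 in males, 0.48 averaged over both, 0.591 for the difference between the sexes and 0.667 for male against female. Groups of 3 to 5 animals limit the precision. With the liver channel centred on each array's median, the median difference in females became 0.171 for S phase and 0.153 for mitosis members and that of the female against the male effect 0.124 and 0.0807, but the median of all genes moved there too, to 0.139 and 0.150. The within-group SD had a median of 0.227 over S phase members in the quantile-normalised liver channel, 0.288 and 0.300 over S phase and mitosis members in the centred one, and 0.115 and 0.122 in the reference channel.

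Genes called over the whole array were 0 in the reference channel and 3 when all 16 arrays had to be above background (male against female), 1 with Agilent's processed signals (males), 1 without background subtraction and 1 with slide and 10 with scan day as a block (both sexes), and 1, 1 and 6 with slide, scan day and array weights (females). Leaving out 1 animal gave 0 to 1 in females and 0 to 11 over both sexes, with 11 without male control 43 and 3 without female control 35. The cause was not tested.

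Correlations by ratio (r between -0.32 and 0.19) moved within slides to 0.576 for Mki67 and 0.562 for Mcm5 with Gata1 (permutation p adjusted 0.0844), with Agilent's processed signals to -0.549 for Cdk1 with Gata1 (adjusted 0.222) and in the authors' deposited table to 0.478 for Rrm2 with Gata1 (rho 0.597, adjusted 0.139). They differed in the liver channel alone, where Afp lay at the top of the quantile-normalised scale, so that its values there are printed without a reading. Quantile-normalised, r was -0.770 for Mcm5 with Afp and, with Gata1, 0.859 for Mki67, 0.569 for Cdk1, 0.673 for Mcm5 and 0.593 for Rrm2. Median-centred it was 0.928, 0.711 and 0.843 for Mki67, Cdk1 and Mcm5 with Gata1. Rrm2 with Gata1 had 0.548 there (permutation p adjusted 0.0564) and rho 0.659 (adjusted 0.0232). Mcm5 with Afp had 0.377 median-centred (adjusted 0.214), opposite in sign to the quantile-normalised value. In the reference channel it was 0.684 for Cdk1 and 0.811 for Rrm2 with Afp, where rho was 0.203 and 0.417. Settings added after seeing the data, on the quantile-normalised liver channel, gave within groups -0.576, -0.556 and -0.868 for Mki67, Cdk1 and Mcm5 with Afp and 0.828, 0.711, 0.661 and 0.543 for Mki67, Cdk1, Mcm5 and Rrm2 with Gata1, the rho of Rrm2 being 0.388 (permutation p adjusted 0.147). Within slides they gave -0.674 for Mcm5 with Afp and 0.904, 0.554, 0.780 and 0.849 with Gata1, and without the 2 farthest arrays -0.709 for Mcm5 with Afp and 0.844, 0.667 and 0.675 for Mki67, Mcm5 and Rrm2 with Gata1. The cause was not tested. No paired analysis was possible because the groups share no replicate number; slides shared by groups were used as a block instead.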
